A study of Mus musculus with 4 samples.

Results

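The Snord115 and Snord116 imprinted snoRNA cluster lies on mouse chromosome 7 between Ube3a and Snrpn, inside the long non-coding host gene Snhg14. Its H3K79me2 peaks were chosen by position, as all listed peaks of chromosome 7 with a start at or above 59000001 and an end at or below 60500000. The interval was proposed because earlier results of these data had shown many peaks there, so the number of peaks in it is a description and not a finding. It held 55 of the 432 listed peaks, 23 of 271 in the control list and 32 of 161 in the methotrexate (MTX) list.

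H3K79me2 was measured by ChIP-seq in mESC, cultured embryonic stem cells of the Sv/129 mouse strain. Control cells were grown in medium with normal folate, for 1 week by the sample title and for at least 2 passages by the protocol. MTX cells were grown in the same medium before 1 μM MTX, an inhibitor of dihydrofolate reductase, was added for 12 h by the sample title or 24 h by the protocol. Each condition had 1 ChIP library, made with a rabbit monoclonal antibody against dimethylated H3 lysine 79, and 1 input library, so the conditions have no replicate check and no test was made between them. After removal of duplicates the control ChIP and input libraries held 14763032 and 15606892 tags, and the MTX libraries held 15648281 and 14507662 tags.

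Snord115 and Snord116 are C/D box small nucleolar RNAs (snoRNAs), each present in many tandem copies that are cut from introns of the Snhg14 transcript. In mammals this transcript comes from the paternal chromosome and runs antisense to Ube3a, a ubiquitin ligase gene that is silenced on the paternal chromosome in neurons. Loss of the paternal Snord116 copies is linked to Prader-Willi syndrome. H3K79me2 is placed by the methyltransferase DOT1L and is known to mark the early part of transcribed genes.

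Neither list had a peak at the start of Snhg14, at the shared start of Snurf and Snrpn, or at the start of Ube3a. These starts are shown because the host transcript begins at or above Snrpn and ends over Ube3a, so that they mark where the cluster is transcribed from and towards. The sequences are from RefSeq, build GRCm38.p6, 250 bases before to 50 bases after each start, written 5′ to 3′ on the gene's strand, with CG dinucleotides in capitals.
Snhg14, chr7:60450128-60450427, minus strand: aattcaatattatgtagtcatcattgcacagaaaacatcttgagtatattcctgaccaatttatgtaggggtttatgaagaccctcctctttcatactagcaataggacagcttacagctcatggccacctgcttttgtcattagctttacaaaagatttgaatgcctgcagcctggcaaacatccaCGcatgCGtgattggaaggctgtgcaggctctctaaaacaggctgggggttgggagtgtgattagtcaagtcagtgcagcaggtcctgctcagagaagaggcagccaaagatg
Snurf and Snrpn, chr7:60005150-60005449, minus strand: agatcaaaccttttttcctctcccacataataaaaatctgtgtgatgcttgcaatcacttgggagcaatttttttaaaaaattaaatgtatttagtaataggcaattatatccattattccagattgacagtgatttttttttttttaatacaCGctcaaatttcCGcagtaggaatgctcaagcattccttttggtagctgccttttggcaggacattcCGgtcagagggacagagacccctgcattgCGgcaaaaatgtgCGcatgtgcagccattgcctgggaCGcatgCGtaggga
Ube3a, chr7:59228500-59228799, plus strand: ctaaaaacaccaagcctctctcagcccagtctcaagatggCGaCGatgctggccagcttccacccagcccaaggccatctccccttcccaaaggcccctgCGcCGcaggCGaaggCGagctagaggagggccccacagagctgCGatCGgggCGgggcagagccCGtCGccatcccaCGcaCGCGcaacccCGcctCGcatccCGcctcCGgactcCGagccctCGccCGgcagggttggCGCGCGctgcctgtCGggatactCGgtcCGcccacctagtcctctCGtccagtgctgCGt
The Ube3a window held 29 CG dinucleotides, and 12.9% of the 32851 RefSeq promoter windows of the same length held at least as many. The Snurf and Snrpn window held 7 (52.1% of windows held at least as many) and the Snhg14 window held 2 (85.9%). Snrpn has further listed starts, of which the furthest has the same window as Snhg14, and the other upstream starts share exact runs of 62 and 55 bases with it. The peak nearest to the Snhg14 start lay 556 kb away in the MTX list and 558 kb away in the control list. For Snurf these distances were 111 kb and 113 kb, for Ube3a 234 kb and 235 kb, and for the start of Ipw, a non-coding transcript that begins at the lower end of the Snord116 array, 32.9 kb and 32.2 kb. Distances to RefSeq features rest on a match between the files and this build that is described in the processing notes, since the sources used here name no build.

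All peaks of the interval lay in a stretch of 432 kb in the MTX list, from 59462844 to 59894594, and of 428 kb in the control list, from 59464076 to 59891942. The boundaries of the interval did not decide the membership. The outermost peaks lay 463 kb and 605 kb inside them, and the nearest listed peaks outside were on the megabase scale away. Below the interval these were a control peak from 18411527 to 18411799 (pileup 12.0 tags, 5.85-fold), 41.1 Mb away, and an MTX peak from 50990743 to 50990945 (21.3 tags, 5.24-fold), 8.47 Mb away. Above it, both lists had a peak at the same place, from 83412548 to 83412858 in the control (25.0 tags, 3.89-fold) and from 83412735 to 83413111 in MTX (22.2 tags, 4.65-fold), 23.5 Mb away. Outside the interval, chromosome 7 had 4 control and 8 MTX peaks in all, these included. The interval held 8.49% of the control list (95% Wilson interval 5.72 to 12.4) and 19.9% of the MTX list (14.4 to 26.7), where the intervals cover counting error only and treat peaks as independent.

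The RefSeq gene table lists the snoRNA copies of the interval as separate short genes. Between Ube3a and Ipw it has 133 copies of 78 to 79 bases with a median spacing of 1871 bp, and from inside Ipw upwards it has 70 copies of 90 to 94 bases with a median spacing of 2528 bp. The former were taken as the Snord115 array and the latter as the Snord116 array from position and length. No gene of the former carries the name Snord115, while 18 of the latter are named as Snord116 genes or list it as a synonym. The Snord115 array held 10 control and 15 MTX peaks, and the Snord116 array held 13 control and 17 MTX peaks, so both lists divided in a like way between the arrays (43.5% and 46.9% in the Snord115 array).

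Peaks covered only a part of each array. In the Snord115 array 53 copies lay below the first summit of either list, which was 115 kb from the end of the array nearest to Ube3a, and 13 copies lay above the last summit. In the Snord116 array 13 copies lay below the first summit and 5 above the last. The copies next to these outermost summits are included, and some of them are touched by a peak. Counting each copy that was the nearest to some summit of either list, 19 of 133 Snord115 copies (14.3%) and 17 of 70 Snord116 copies (24.3%) were so marked. A summit can mark only a single copy, so these shares are bounded by the 25 Snord115 and 30 Snord116 summits. The widest stretch without a peak of either list, 114 kb from the end at 59597130 to the start at 59711070, spans the end of the Snord115 array, Ipw and the lower end of the Snord116 array. The next widest, 68.5 kb from 59804753 to 59873291, contains the widest gap between annotated Snord116 copies (52219 bp).

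**Figure D1:**
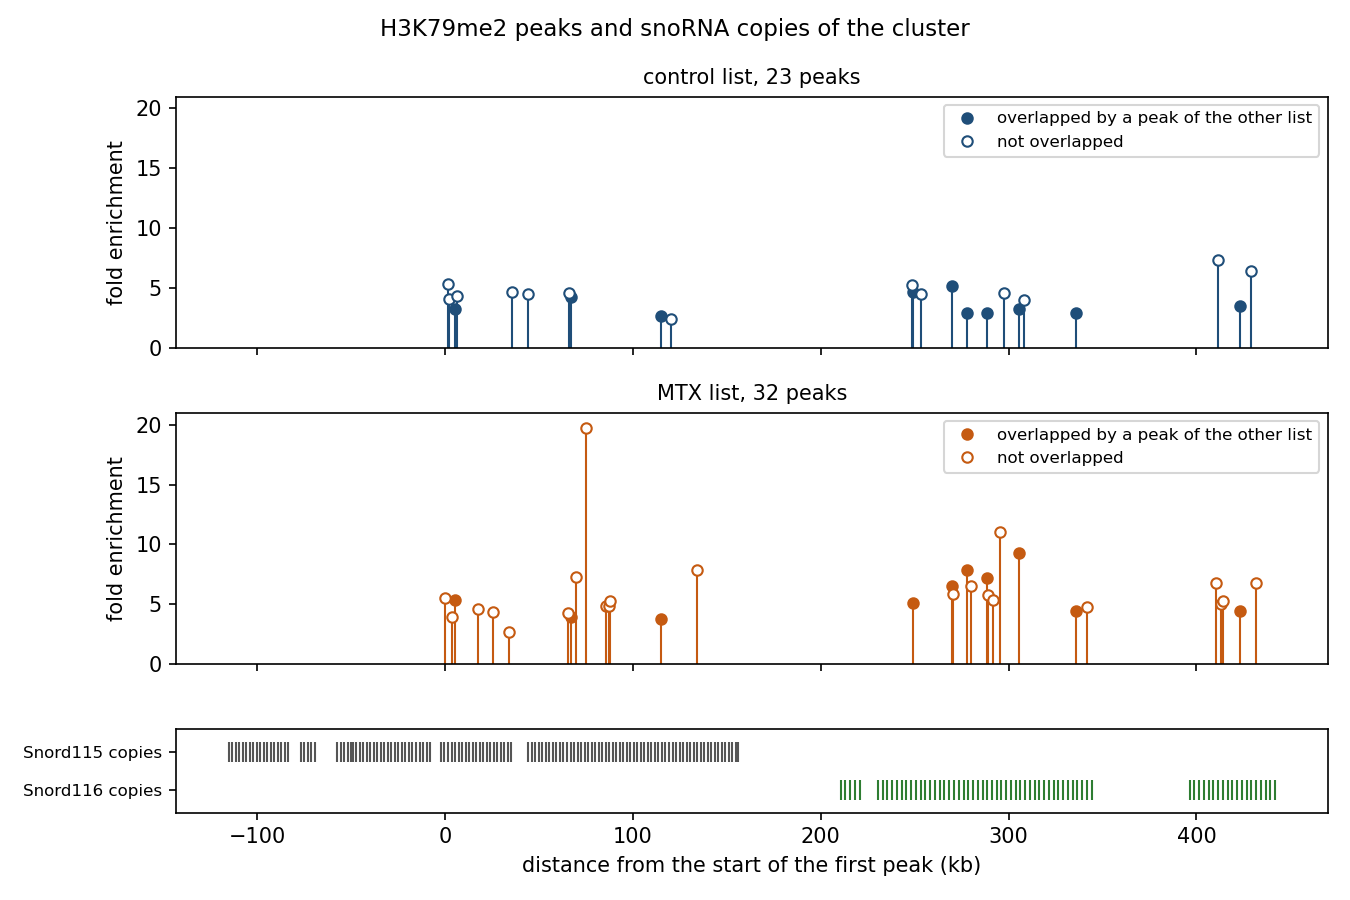
Fold enrichment (vertical axis) of each H3K79me2 peak in the control and MTX lists against the distance of its summit from the start of the first peak of either list (horizontal axis, kb), with the annotated snoRNA copies as ticks. Filled points are the 10 peaks of each list that overlap a peak of the other list. Peaks begin 115 kb into the Snord115 array, and no peak lies in the 114 kb between the peaks of the arrays.

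Within a list, neighbouring summits were a median of 8469 bp apart in the control (exact 95% interval of the median 3150 to 22094) and 7693 bp apart in MTX (2471 to 10439). Both medians correspond to several repeat units. Inside the Snord115 array the median spacing was 3.01 repeat units in the control and 3.65 in MTX, and inside the Snord116 array 3.43 and 2.73. In each list 3 neighbouring pairs of summits were under 1 kb apart. Peaks were short, with median lengths of 231 bp (control) and 220 bp (MTX), against 234 and 230 bp in the whole lists. In the cluster 7 control and 4 MTX peaks had the fragment length itself (190 and 192 bp), the lowest length in each list. Over the whole lists 51 of 271 control and 23 of 161 MTX peaks had it. Control peaks covered 6020 bp and MTX peaks 7709 bp, or 1.41% and 1.79% of the stretch between the first and last peak.

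No summit of the 55 lay inside an annotated snoRNA copy. Copies fill little of the unit, 78 to 79 bases of a median 1871 bp (Snord115) and 90 to 94 of 2528 bp (Snord116). Few summits placed without regard to the copies would lie in one, so this count is a description. Measured from the nearest copy, summits of the Snord115 array had a median distance of 346 bp in the control list and 360 bp in the MTX list, and those of the Snord116 array 517 bp and 531 bp. At least 1 bp of a copy was covered by 1 control and 4 MTX peaks of the Snord115 array and by 2 control and 3 MTX peaks of the Snord116 array. These counts were not set against a random placing of peaks. Summits were also placed within the repeat unit, from the start of the copy at the lower position up to the next copy, where 2 summits that lay past the median unit length were counted back from the next copy. With the unit divided into 4 equal parts, these held 4, 2, 11 and 13 of the 30 summits in the Snord116 array, in order from the lower copy, and 7, 4, 6 and 8 of the 25 summits in the Snord115 array. Peaks that overlap between the lists count once in each list here. By list, the parts of the Snord116 unit held 1, 1, 4 and 7 of 13 control and 3, 1, 7 and 6 of 17 MTX summits. In each list most summits of this array thus lay in the last 2 parts, and no test was made. Some summits of different units shared a place in the unit. Between 415 and 456 bp of the Snord115 unit there were 5 summits, 2 control and 3 MTX, from 4 units. Between 1467 and 1553 bp of the Snord116 unit there were 6 summits, 2 control and 4 MTX, also from 4 units. These windows of up to 100 bp were picked as the densest, and peaks that overlap between lists count in both, so the counts are a description.

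**Figure D2:**
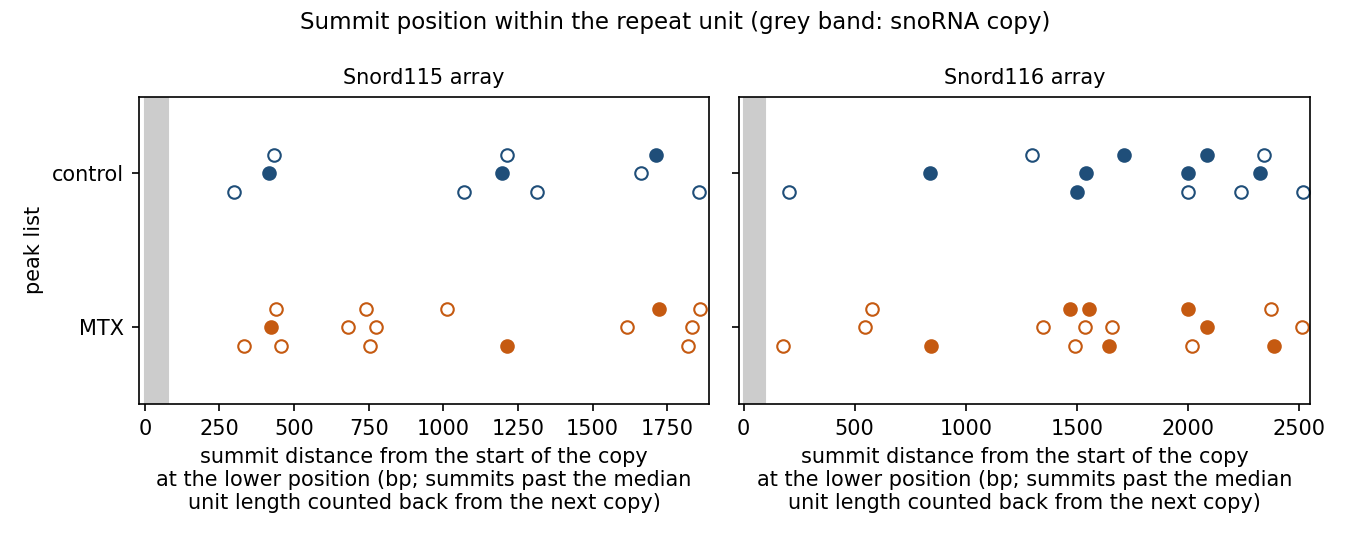
Position of each summit within its repeat unit (horizontal axis, bp from the start of the snoRNA copy at the lower position) for the Snord115 and Snord116 arrays, by list. The 2 summits past the median unit length were counted back from the next copy. Filled points overlap a peak of the other list, points are offset vertically for legibility, and the grey band is the snoRNA copy. No summit lies in a copy, which fills little of the unit. The last 2 of 4 equal parts of the Snord116 unit hold 11 and 13 of its 30 summits, with overlapping peaks counted in both lists.

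Fold enrichment compares the pileup of a peak, which counts the tag fragments over its summit, with the input background there, after adding 1 to both. The median fold enrichment in the cluster was 4.39 in the control (exact 95% interval of the median 3.31 to 4.66) and 5.31 in MTX (4.75 to 6.51). Such intervals of a median describe the spread over the peaks of 1 library, taken as independent, and do not compare the conditions. The chromosome 1 cluster had medians of 3.25 in the control and 4.19 in MTX, and the peaks elsewhere 5.21 and 5.16. The median of the snoRNA cluster was thus above that of the chromosome 1 cluster in both lists, and against the peaks elsewhere it was lower in the control and about equal in MTX. A fold enrichment of at least 5 was reached by 5 of 23 control peaks and 20 of 32 MTX peaks of the cluster, against 34.3% of the whole control list and 44.7% of the whole MTX list. The whole lists mix low shares in the chromosome 1 cluster (3.45% and 24.5%) with higher ones elsewhere (52.8% and 51.3%). In the Snord116 array it was reached by 4 of 13 control and 14 of 17 MTX peaks, and in the Snord115 array by 1 of 10 and 6 of 15. The lists differ in which peaks were called, and no test was made.

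The pileups did not show the same order. The median pileup in the cluster was 30 tags in the control (range 14.0 to 61.0) and 22.7 tags in MTX (range 14.8 to 51.9), both above the medians of 13.0 and 15.8 tags at the peaks elsewhere in the genome and below the medians of 36.0 and 32.5 tags in the peak cluster of chromosome 1. Local input background behind them had a median of 6.62 tags in the control (exact 95% interval 3.78 to 11.4) and 3.92 tags in MTX (2.0 to 4.0). The median background was 1.62 and 2.0 tags at the peaks elsewhere and 9.46 and 6.0 tags in the chromosome 1 cluster, so pileup and background placed the regions in the same order in both lists. In the Snord115 array these medians were 6.15 and 4.0 tags, and in the Snord116 array 6.62 and 3.0 tags. Across the peaks of the cluster, pileup and background rose together (Spearman's rho 0.92 over 23 control peaks and 0.78 over 32 MTX peaks), as in the whole lists (0.93 and 0.90). A peak must exceed its own background to be listed, so these values are partly set by the calling.

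**Figure D3:**
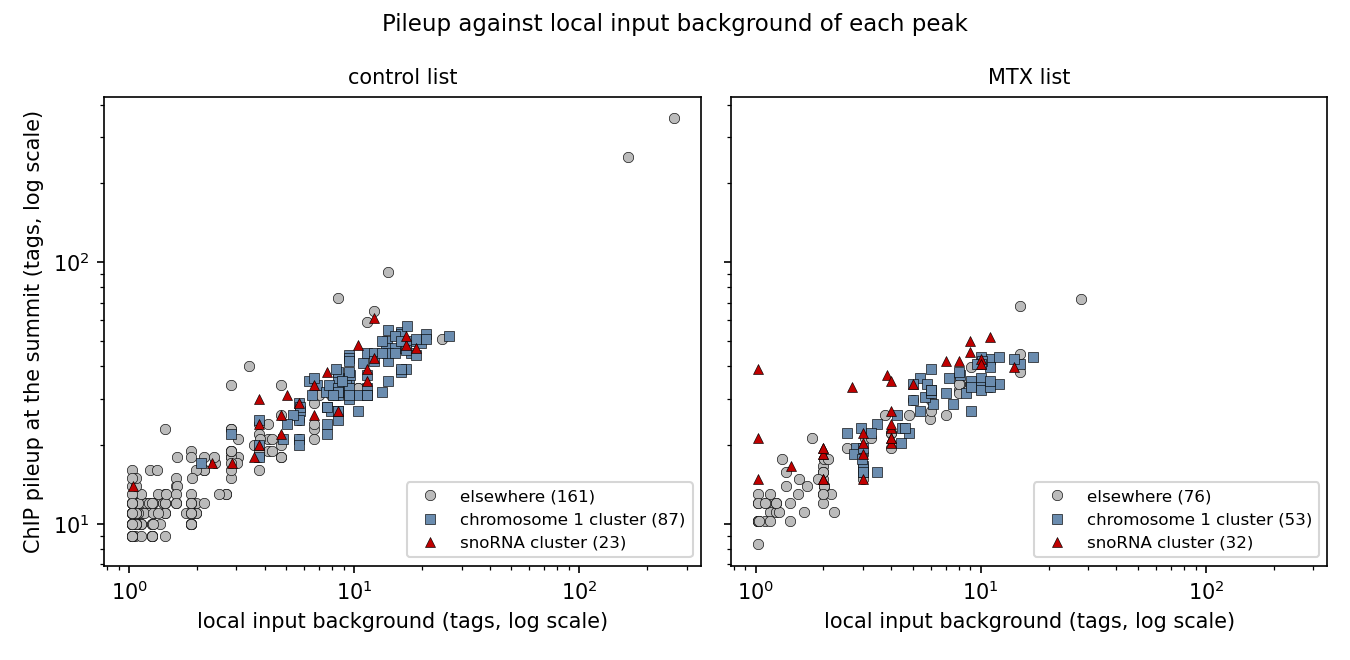
ChIP pileup at the summit (vertical axis, tags, log scale) against local input background (horizontal axis, tags, log scale) for all peaks of the control and MTX lists, with the snoRNA cluster as red triangles, the chromosome 1 cluster as blue squares and other peaks in grey. Cluster peaks of the control follow the band of the other peaks. In MTX 3 of 32 cluster peaks sit at the genome average background, with pileups of 14.8, 21.3 and 38.9 tags. Of the MTX peaks elsewhere, 8 of 76 sit there too.

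The background resolved into whole numbers of input tags. For 18 of 23 control and 26 of 32 MTX peaks it was, within 0.02 tags after undoing the scaling, a whole number, from 4 to 20 input tags in the control and from 2 to 14 in MTX. Most folds in the cluster therefore rested on at most 20 input tags. The ChIP side rests on 14 to 61 tags per summit in the control and 16 to 56 in MTX, before scaling. In the whole lists the background was, by the same rule, a whole number for 131 of 271 control and 90 of 161 MTX peaks.

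The background divides the pileup in the fold enrichment, and the peaks picked for the highest folds had backgrounds below the median of the cluster in their list. The MTX peak from 59537785 to 59538027, in the Snord115 array with Gm23305 as its nearest copy, had 42 ChIP tags (exact Poisson 95% interval 30.3 to 56.8), a scaled pileup of 38.9 tags and a fold enrichment of 19.8. The next was the MTX peak from 59758081 to 59758278 near Gm23313 in the Snord116 array, with 23 tags (14.6 to 34.5) and 11-fold. The MTX peak from 59768521 to 59768754 near Gm25210 followed with 36 tags (25.2 to 49.8) and 9.32-fold. Of these, the highest and the next had a background of 1.02 tags, the genome average, and the last had 2.69 tags. In the control the highest folds were 7.34, 6.48 and 5.39. They belonged to the peaks from 59874102 to 59874291 near Snord116l13 (14 tags, 7.65 to 23.5, background 1.04 tags), from 59891712 to 59891942 near Snord116l3 (30 tags, 20.2 to 42.8, background 3.78 tags) and from 59464076 to 59464497 near Gm22630 (17 tags, 9.90 to 27.2, background 2.34 tags). The latter control peaks were also the last and the first of the list by position. In the MTX list the first peak, from 59462844 to 59463068 near Gm22524, had 29 tags and 5.58-fold, and the last, from 59894375 to 59894594 near Snord116l1, had 21 tags and 6.82-fold.

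Of the 3 peaks of each list with the strongest input, all lay in the Snord115 array except for 1 in the control. The control peaks with the highest background lay from 59583158 to 59583449 near Gm23944 (18.9 tags, 2.41-fold) and from 59577534 to 59577788 near Gm22640 (17.0 tags, 2.72-fold). The exception, from 59740866 to 59741060 near Gm26032 in the Snord116 array, also had 17.0 tags (2.94-fold). In MTX the highest were the peaks from 59496845 to 59497036 near Gm26432 (14.0 tags, 2.72-fold), from 59488303 to 59488494 near Gm26336 (11 tags, 4.41-fold) and from 59529948 to 59530151 near Gm24219 (10.0 tags, 3.97-fold). The last was tied, within the rounding of the files, with the peak from 59577511 to 59577731 near Gm22640 (10.0 tags, 3.80-fold). The pileups of the control and MTX peaks named here ranged from 39.9 to 52.0 tags. As these peaks were picked for their background, which is the divisor of the fold, their low folds are a description.

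Raised input was not continuous along the cluster. The background is the highest of the genome average, the input over the summit and the averages of the windows around it, so a background at the genome average bounds the input over 10 kb. At 3 MTX peaks, those from 59537785 to 59538027, from 59758081 to 59758278 and from 59596908 to 59597130 (7.83-fold), the mean input over 10 kb was thus at or below 1.02 tags. The window around 59758081 also held another MTX peak, 3.6 kb away, with a background of 3.0 tags. In the control the lowest background, 1.04 tags from 59874102 to 59874291, was 1.01 times the genome average. No peak of the chromosome 1 cluster had a background at the genome average in either list. Elsewhere 24 of 161 control (14.9%) and 8 of 76 MTX peaks (10.5%) had, against 3 of 32 MTX peaks of the snoRNA cluster (9.38%).

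At least 1 bp overlapped between the lists at 10 peaks of each, 10 of 23 control peaks (43.5%) and 10 of 32 MTX peaks (31.2%), against 15.5% of all control and 26.7% of all MTX peaks. In the chromosome 1 cluster the shares were 28.7% and 47.2%, and elsewhere 4.35% and 10.5%, so that in MTX the snoRNA cluster lay below the chromosome 1 cluster. Together the lists marked 45 distinct regions in the cluster. The Snord115 array held 3 of the overlapping pairs and the Snord116 array 7. Their summits were a median of 10.5 bp apart (range 0 to 67), and in each pair both summits had the same nearest snoRNA copy. Peaks without an overlap were mostly further apart. Of 13 control peaks without an overlap, 4 had an MTX peak within 1 kb, and of 22 such MTX peaks, 4 had a control peak within 1 kb. Overlapping peaks had median pileups of 41.0 tags in the control and 36.2 in MTX, against 26.0 and 20.9 at the others, although the highest MTX pileup of the cluster, 51.9 tags from 59488303 to 59488494, had no overlap.

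At the median of these pairs the pileup differed less between the lists than the background. The MTX to control ratio of the pileup had a median of 0.82 (range 0.71 to 1.07), and in all 10 pairs the exact Poisson intervals of the pileups overlapped. The ratio of the background had a median of 0.56 (range 0.22 to 0.96) and was below 1 in 10 of 10 pairs. The ratio of fold enrichment had a median of 1.46 (range 0.92 to 2.82) and was above 1 in 9 of 10. The pileup ratio was below 1 in 8 of 10 pairs, so most of the higher folds in MTX stood beside a lower input and a lower pileup. Summed over all 10 pairs, the scaled ChIP tags were 403 in the control (exact Poisson 95% interval 365 to 444) and 342 in MTX (308 to 379), and the backgrounds were 111 and 56.5 tags. In the 8 pairs whose background was a whole number of input tags in both lists, the exact Poisson intervals of the input tags overlapped pair by pair, at few tags each. Summed over these 8 pairs, the scaled input tags were 81.3 in the control (65.1 to 100.5) and 50 in MTX (37.1 to 65.9), intervals that barely met. The other 2 pairs, near Gm26032 and Gm25210, had no such interval in MTX, and the background differed most between the lists there. These intervals cover counting error in single libraries only.

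The difference was widest at 3 pairs in the lower part of the Snord116 array. At the pair from 59768240 to 59768680 in the control and from 59768521 to 59768754 in MTX, whose summits coincided, the pileup was 43.0 and 33.4 tags, the background 12.3 and 2.69 tags and the fold enrichment 3.31 and 9.32. At 59740866 to 59741060 and 59740840 to 59741035 the pileup was 52.0 and 37.1 tags and the background 17.0 and 3.84 tags, giving 2.94-fold and 7.87-fold. At 59751171 to 59751471 and 59751211 to 59751494, near Gm24760, the pileup was nearly equal, 35.0 and 35.2 tags, the background 11.4 and 4.0 tags, and the folds 2.91 and 7.25. These 3 pairs were those with a fold enrichment more than 2 times as high in the MTX list as in the control list.

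The remaining Snord116 pairs differed less. At 59711731 to 59711952 and 59711728 to 59711984, near Gm22417, the control had the highest pileup of the cluster, 61.0 tags against 50.1 in MTX, with 4.66-fold and 5.11-fold. At 59732504 to 59732907 and 59732487 to 59732890, near Gm23047, the pileup was 24.0 and 18.5 tags (5.23-fold and 6.51-fold). The pair at 59798551 to 59798740 and 59798380 to 59798708, near Gm22258, had 2.94-fold and 4.46-fold, and the pair at 59885951 to 59886140 and 59885881 to 59886131, near Snord116l5, had 3.54-fold and 4.46-fold. All 7 Snord116 pairs had the higher fold and the lower background in MTX.

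The Snord115 pairs held the only fold that was lower in MTX. It was at 59529960 to 59530163 and 59529948 to 59530151, near Gm24219, with 4.30-fold in the control and 3.97-fold in MTX at backgrounds of 10.4 and 10.0 tags. The pair at 59467877 to 59468146 and 59467889 to 59468190, near Gm26059, had 3.24-fold and 5.34-fold, and its pileup was slightly higher in MTX (39.0 and 41.7 tags). The pair at 59577534 to 59577788 and 59577511 to 59577731 had 2.72-fold and 3.80-fold. A lower background in MTX was also found in 25 of 25 overlapping pairs of the chromosome 1 cluster (median ratio 0.62) and in 7 of 8 pairs elsewhere (median ratio 0.67). The pileup was lower in MTX in 25 of 25 pairs of the chromosome 1 cluster (median ratio 0.81) and in 7 of 8 elsewhere (0.87). The median fold ratio was 1.25 and 1.10 there, and no test of a difference from the snoRNA cluster was made.

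**Figure D4:**
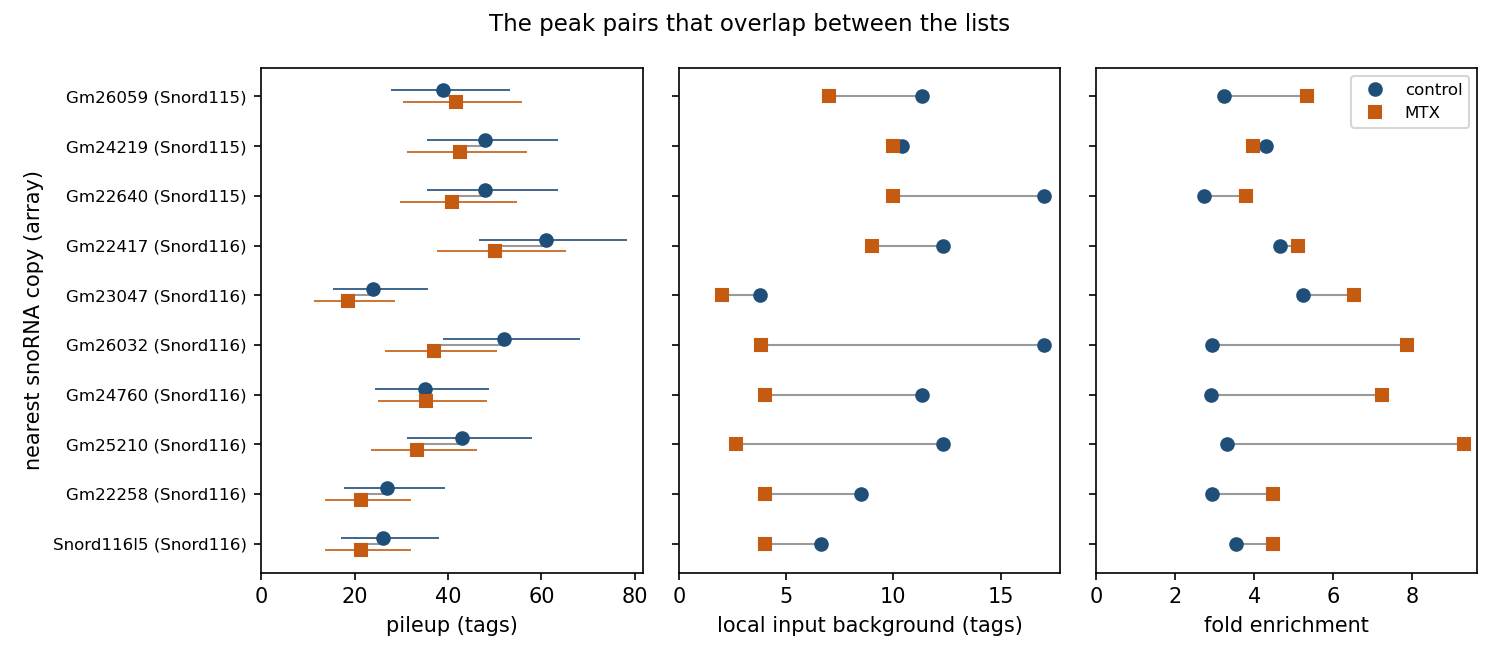
Pileup (tags, bars are exact Poisson 95% intervals), local input background (tags) and fold enrichment of the 10 peak pairs of the cluster that overlap between the lists, by position and named by the nearest snoRNA copy. Circles are control and squares are MTX. In MTX the pileup is lower in 8 pairs, with overlapping intervals in all 10, the background is lower in all 10 and the fold is higher in 9.

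The peak annotation that accompanies the study gives for a peak the gene it is linked to and a class, exon, intron or promoter. It linked 10 of 23 control peaks of the cluster, against 40.2% of the whole control list, and 22 of 32 MTX peaks, against 48.4% of the whole MTX list. The linked peaks were those without a counterpart in the other list. Of the 20 overlapping peaks in the cluster none had a row, whereas 10 of 13 unmatched control and 22 of 22 unmatched MTX peaks had. In the whole lists 6 of 42 overlapping control peaks and 7 of 43 overlapping MTX peaks had a row, against 103 of 229 and 71 of 118 of the others. Counts of classes in the cluster therefore describe the unmatched peaks only. The annotation's identifiers are not paired with gene names in the sources used here, and the gene table gives no such identifiers.

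Apart from the gene that holds the intron rows, which by position can only be Snhg14 among the longer RefSeq genes there, 9 control peaks were linked to 8 genes and 18 MTX peaks to 17 genes. All 9 and all 18 had the promoter class, and 3 control and 4 MTX peaks also had the exon class. Each of these 7 exon peaks overlapped a RefSeq snoRNA copy, and 1 of the other 25 linked peaks did. Over both whole lists, 109 control and 78 MTX peaks had a row, and 167 peaks had the exon or intron class. Whole-list shares of the promoter class are not given here, so the class counts of the cluster are a description. The promoter class reached far relative to the size of these genes. The summits with this class were a median of 209 bp (control) and 369 bp (MTX) from the nearest copy, and up to 1205 bp and 1192 bp. Most such peaks lay beside a snoRNA copy and not on it. In the Snord115 array 12 MTX and 4 control peaks had the promoter class of such a gene, and in the Snord116 array 6 and 5.

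Introns of the host gene were named only in the Snord116 array, for 6 control and 10 MTX peaks. The control peak from 59771101 to 59771290 was also placed in an exon of the host, and the MTX peak from 59875716 to 59875908 was given as a promoter of the host itself. No Snord115 peak had a host row, although RefSeq places all 55 peaks within Snhg14. The MTX peak of highest fold had the promoter class of a small gene and no intron row, and the next had intron rows only.

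Genes of the wider locus were looked up by symbol in the gene table. Of all 49997 genes of the table, 0.138% held a control peak and 0.102% an MTX peak, so that few genes of any short list would hold one. Snhg14 held all 23 control and 32 MTX peaks of the cluster. No peak of either list lay in Ube3a, Snord64, Ipw, Snrpn and Snurf, in the neighbouring imprinted genes Ndn, Magel2, Mkrn3 and Peg12, in the flippase gene Atp10a, or in the GABA receptor genes Gabra5 and Gabrg3. Snord115, Snord116 and Snord107 are not symbols of the table, and the arrays stood in for the former. In the other imprinted snoRNA locus of the mouse, on chromosome 12, none of Dlk1, Meg3, Rian and Mirg held a peak, and Snord113 and Snord114 were not in the table. Of 8 genes of the pluripotent state (Pou5f1, Nanog, Sox2, Klf4, Esrrb, Zfp42, Dppa5a and Tdgf1), none held a peak in either list. Values exist only at listed peaks, and the lowest pileup listed anywhere was 9.0 tags in the control and 8.34 in MTX. H3K79me2 below that level was not detectable at these genes, including those that embryonic stem cells are known to transcribe. A peak must also exceed its own background to be listed, so a higher pileup could go unlisted as well.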

How the data were processed

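H3K79me2 ChIP-seq was analysed from 4 libraries of mESC, 1 ChIP and 1 input library for each of control and MTX. The protocol also mentions normal IgG for the control DNA, while the sample titles call these libraries input. Per the paper's methods and the file headers, the authors used Bowtie2 with its default settings for mapping, then MACS 2.1.1.20160309 in narrow mode for each ChIP library against its own input, at a q-value of 0.05 and with at most 1 tag kept per position. By default Bowtie2 reports a single alignment of a read that matches several repeat copies equally well, and any later filter on such reads is not given in the sources used here. The deposited signal is the tag pileup at the summit, and in each pair the larger library was scaled down, so that MTX pileups were multiplied by 0.927 and control input by 0.946. The deposited fold enrichment is the ratio of the pileup to the input background, each raised by 1. The −log10 p-values and −log10 q-values are the authors' deposited values and were used only as filters.

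Peaks were analysed with Python 3.11.15, pandas 2.3.3, numpy 2.4.6, scipy 1.17.1 and matplotlib 3.10.9. The local input background was recovered as (pileup + 1) / fold enrichment - 1. Overlap functions and intervals were tested on simulated data. Shares have 95% Wilson intervals and tag numbers exact Poisson intervals, which cover counting error only. Medians have exact order-statistic intervals, which reflect the spread over peaks taken as independent. The chromosome 1 cluster was taken as the longest chain of peaks of both lists at gaps of up to 500 kb, from 84962851 to 85651430, with 87 control and 53 MTX peaks.

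No source names the genome build. The gene table of GRCm38.p6 was used after a check on the cluster. The 7 peaks that the annotation places in an exon of a small gene all overlapped a snoRNA copy of the table, and its small genes paired with 25 nearest copies, 1 gene to each. Of 167 peaks with exon or intron class in the whole lists, 150 lay in a gene of the table, against 38 of 173 peaks that had no row and no overlap. Gene and class of a peak came from the annotation published with the study, joined by position; it names no conditions.

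The members and lists were chosen with earlier results of these data known. A gene of the locus list is not reported here. Named peaks were, per list, the 3 of highest fold enrichment, the 3 of highest background, the first and last, every overlapping pair and the nearest peak outside on each side. Others named were picked after their values were seen. Alternatives were a stricter q-value (0.01), only peaks of 5-fold or more, merging within 1 kb, an interval wider by 500 kb on each side, means, start spacing, other overlap rules and overlap with a RefSeq copy.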

Additional observations from a re-analysis of the deposited data

How the results depend on the processing

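No paired analysis was possible because the design has a single ChIP library for control and for MTX. Of 54 values recomputed, 40 stayed within 1.5 times of a count or within the 95% interval of a share or median, and 14 moved. A q-value of 0.01 or less, merging, the wider interval, start spacing and the other overlap rules moved none. A fold enrichment of at least 5 gave 11 of the changes. It selects on the fold itself and also leaves fewer peaks, and which of these moved each value was not separated, so the cause was not tested. It left 5 control peaks (5.38% of 93 listed) and 20 MTX peaks (27.8% of 72), 1 peak of each list overlapped by the other, and 4 control and 10 MTX peaks at a gene other than the host. In the control it also moved the median background to 3.78 tags, the median fold to 5.39 and the median spacing to 81496 bp. The mean background in MTX was 4.56 tags, against a median of 3.92 (2.0 to 4.0), and the cause was not tested. Single backgrounds in this list reached 14.0 tags in the cluster. Counting peaks that overlap a RefSeq snoRNA copy, in place of the annotation's classes, gave 3 control and 7 MTX peaks. The promoter class reaches beyond the copies. Also, the MTX peaks from 59467889 to 59468190 and from 59751211 to 59751494 overlap a copy but have no row in the annotation. Depth limits the folds, as backgrounds of few input tags carry wide counting error, and the placing of reads among repeat copies was not tested.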

Other observations

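In the MTX list 8 peaks of the cluster shared 4 pairs of values, with equal pileup and equal fold enrichment at different places, such as 18.5 tags and 6.51-fold from 59732487 to 59732890 and from 59742646 to 59742839. No control peaks of the cluster shared both values. Such ties also occurred outside the cluster in both lists. On chromosome 1, MTX peaks from 85492263 to 85492548 and from 85636194 to 85636391 both had 32.45 tags and 4.78-fold. Control peaks there from 146104728 to 146104975 and from 188918157 to 188918409 both had 10 tags and 5.42-fold. Ties in the whole lists were not counted, so the count in the cluster is a description.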
